A study of Rattus norvegicus with 8 samples.

Results

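The genes described here are Egr1, Egr2, Egr3 and Egr4, Ier2, Ier3 and Ier5, Arc, and Srf. They were taken by name, as every probe set whose annotated symbol is 1 of these 9. That gave 15 probe sets, 14 of 15866 on chip A with 1 of 15276 on chip B, for 9 of the 13810 genes that carry a symbol of their own on either chip. No probe set that carries several symbols held any of the 9. RNA came from PC12, a chromaffin-like line derived from a rat pheochromocytoma, either exposed to forskolin, which activates adenylyl cyclase and so raises cyclic AMP, or labelled as having no forskolin. On each chip, 2 arrays are labelled with forskolin and 2 without it, as replicate 1 and replicate 2. The sources used here do not give the dose, the exposure time or what the inactive control was. The labels do not say that replicates were separate cultures, so p-values speak only of the spread among these arrays, and that spread may be technical.

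The EGR proteins are zinc finger transcription factors that bind a shared GC-rich site, and their genes are switched on within minutes of a stimulus without new protein synthesis. Srf is the serum response factor, which sits on CArG boxes in the promoters of such immediate early genes and works with the ternary complex factors or with the actin-regulated MRTF coactivators. Cyclic AMP acts on many of the same promoters through CREB and the cyclic AMP response element (CRE). Ier2, Ier3 and Ier5 are immediate early response genes, and Arc encodes a cytoskeleton-associated protein of neurons whose mRNA follows synaptic activity. PC12 cells are a common model for these genes because growth factors and cyclic AMP both induce them there.

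Forskolin arrays carried more Egr1, Ier2, Ier3 and Arc mRNA, and no more Egr3, Ier5 or Srf mRNA than the test could tell from the spread. Egr2 and Egr4 were too dim to be tested, and Egr3 was tested close to the limit of brightness. The 4 rises measured 2.76-fold for Ier3, 2.23-fold for Egr1, 2.08-fold for Ier2 and 1.83-fold for Arc. The other 5 genes, read by 11 probe sets on the 2 chips, dim ones included, all lay between -0.13 and 0.10 on the log2 scale. Of the 14 probe sets on chip A, 8 were bright enough to be tested and 4 of these rose, against 3.3% of all 11106 tested probe sets of the chip called in either direction and 2.03% called higher. The single tested probe set on chip B was not called, where 0.159% of 10693 were. A call is an adjusted p under 0.05 by limma, adjusted over every probe set tested on that chip, and every level is the deposited log2 value.

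The promoters below are shown because they hold letters that match the CArG box, the CRE or its core, or the EGR site, and use of these matches was not tested. The 250 bases upstream of the start site were read from the RefSeq promoter table of rat (build GRCr8), which holds 6 of the 9 genes. Egr1 is at chr18:26736828-26737077 (+), Egr2 at chr20:21054442-21054691 (-), Ier2 at chr19:40399123-40399372 (+) and Srf at chr9:21923826-21924075 (+). Each is written 5′ to 3′ on the strand of its gene. Capitals mark the CArG box, the CRE core TGACG on either strand, the full CRE TGACGTCA, which contains that core on both strands, and the EGR site GCGNGGGCG.
Egr1: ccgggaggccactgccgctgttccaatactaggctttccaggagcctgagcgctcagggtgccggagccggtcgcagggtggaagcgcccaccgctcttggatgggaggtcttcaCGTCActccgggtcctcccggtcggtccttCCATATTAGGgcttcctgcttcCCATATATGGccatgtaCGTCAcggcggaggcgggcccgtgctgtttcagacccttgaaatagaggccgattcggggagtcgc
Egr2: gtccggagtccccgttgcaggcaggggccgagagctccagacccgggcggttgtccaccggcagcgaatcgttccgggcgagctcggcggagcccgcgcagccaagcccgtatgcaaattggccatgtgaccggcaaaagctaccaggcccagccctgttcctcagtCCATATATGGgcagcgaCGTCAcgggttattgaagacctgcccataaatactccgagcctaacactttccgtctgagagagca
Ier2: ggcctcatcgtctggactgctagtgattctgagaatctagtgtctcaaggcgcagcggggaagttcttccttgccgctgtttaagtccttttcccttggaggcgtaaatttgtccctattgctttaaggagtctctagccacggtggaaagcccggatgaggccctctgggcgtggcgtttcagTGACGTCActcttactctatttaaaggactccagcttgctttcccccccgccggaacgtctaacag
Srf: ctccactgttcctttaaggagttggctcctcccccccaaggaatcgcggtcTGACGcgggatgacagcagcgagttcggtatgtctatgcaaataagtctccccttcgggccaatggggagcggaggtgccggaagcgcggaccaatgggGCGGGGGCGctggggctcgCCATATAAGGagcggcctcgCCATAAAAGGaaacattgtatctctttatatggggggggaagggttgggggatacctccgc

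The Egr1 promoter held 2 CArG boxes, starting 105 and 83 bases before the start site, and 2 CRE cores, at 135 and 66 bases. The Egr2 promoter held the same 10 letters, CCATATATGG, at 83 bases and a CRE core at 66 bases, so that this box and core have the same spacing in both genes. Ier2 had a full CRE at 66 bases and no CArG box in the window. Srf, whose product binds CArG boxes, had 2 of them in its own promoter, at 81 and 61 bases, with a CRE core at 199 bases and an EGR site at 100 bases. Egr4 had 2 CRE cores, at 178 and 110 bases, and no CArG box, and Ier5 had none of the 4 motifs. The window searched was 250 bases before to 50 bases after the start site, on both strands, and matches are a description of letters, not of binding.

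Among all 33469 promoters of the table, 1.64% held a CArG box, against 3 of these 6 genes. A CRE core was in 21.2% of promoters and in 5 of the 6, a full CRE in 1.83% and in 1, and an EGR site in 4.98% and in 1. A CArG box together with a CRE core was in 0.272% of promoters and in 3 of the 6, namely Egr1, Egr2 and Srf. Of these, Egr1 rose, Srf was not called on any probe set, and Egr2 was too dim to be tested. A full CRE or at least 2 CRE cores was in 4.96% of promoters and in 3 of the 6, namely Egr1 and Ier2, which rose, and Egr4, which was too dim to be tested. Among 6309 other genes with a tested probe set on chip A and a promoter in the table, 2110 held a CRE core. A full CRE was in 204, an EGR site in 676 and a full CRE or at least 2 CRE cores in 582. A CArG box was in 78, and in 26 together with a CRE core. Except for the CArG box, these shares are larger than in the whole table, which is thus a low background for them. These classes were chosen after the values were seen, and no test was made of them.

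**Figure D1:**
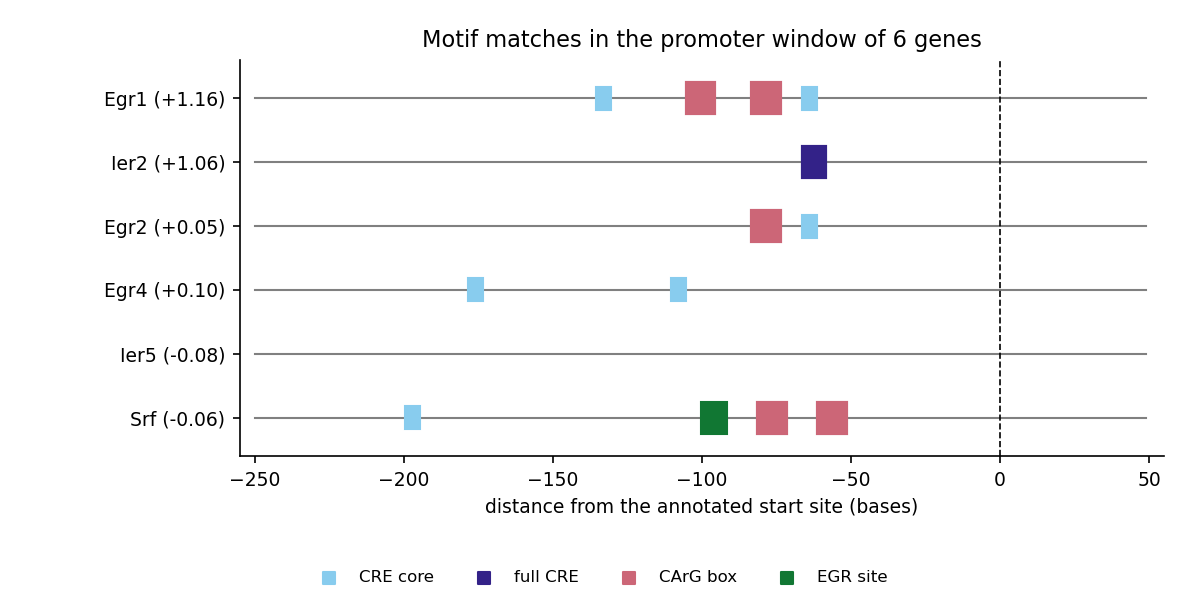
Motif matches in the promoter windows of the 6 genes, by distance from the annotated start site in bases. The log2 change of each gene's brightest probe set stands beside its name, and boxes mark the full CRE, the CRE core, the CArG box and the EGR site. The CArG box at 83 bases and the CRE core at 66 bases stand at the same places in Egr1 (1.16) and Egr2 (0.05). Egr2 was too dim to be tested, and its other probe set measured -0.03.

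Egr1, the founding member of its family and a factor that follows both growth factor and cyclic AMP signals, was read by the probe set 1368321_at. Its forskolin arrays stood at 8.87 and 8.90 and the arrays without forskolin at 7.76 and 7.69. The groups did not overlap, and the gap between them was many times the gap within either. The log2 change was 1.16 ± 0.05 (SE, n = 2 per group), with a 95% interval of 1.05 to 1.27 and a limma adjusted p of 1.67e-06. The rise ranked 27 among 11106 tested probe sets of chip A. Since the level without forskolin (7.73 ± 0.06, SD) already lay above the lowest mean level that the brightness filter kept (7.02), the probe set did not enter the test through its forskolin arrays alone.

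Egr2, a regulator of myelination and hindbrain patterning, had 2 probe sets, annotated to the same source transcript, and both were too dim to be tested. The first, 1387306_a_at, stood at 5.97 and 5.92 with forskolin and at 5.96 and 5.99 without it. The second, 1398266_a_at, stood at 6.27 and 6.28 with forskolin and at 6.24 and 6.21 without it. The first overlapped between groups and the second did not, with its forskolin arrays higher by 0.05 ± 0.05 (log2, SE). Groups that do not overlap are common here: they occur in 46.4% of all chip A probe sets and in 48.5% of those tested. In a fit with no brightness filter, in which 2.01% of 15866 probe sets were called, limma gave the Egr2 probe sets adjusted p = 0.789 and 0.656.

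Egr3, which acts in muscle spindles, lymphocytes and neurons, was tested close to the limit of brightness. Its probe set 1369545_at stood at 7.22 and 7.10 with forskolin and at 7.18 and 7.08 without it. The replicate 1 array was the higher of the pair in both groups, and the groups overlapped. The log2 change was 0.03 ± 0.06 (SE), with a 95% interval of -0.11 to 0.17 (limma adjusted p = 0.848). That interval lies below the whole interval of Egr1, although the difference between the 2 genes was not itself tested.

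Egr4, the member that is found mainly in neurons, had 2 dim probe sets that differed in sign. The arrays read 6.62 and 6.61 with forskolin and 6.73 and 6.73 without it on 1375784_at. On 1387442_at they read 6.84 and 6.79 with forskolin and 6.68 and 6.76 without it. The groups did not overlap on either, being lower with forskolin on the first (-0.11 ± 0.05, log2, SE) and higher on the second (0.10 ± 0.05). Neither was called in the limma fit with no filter, with adjusted p = 0.317 and 0.429, and for the first an unadjusted p of 0.0458. Probe sets at this level, near the 24th to 26th percentile of the chip, may read little beyond background, which was not tested because no detection calls were used.

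**Figure D2:**
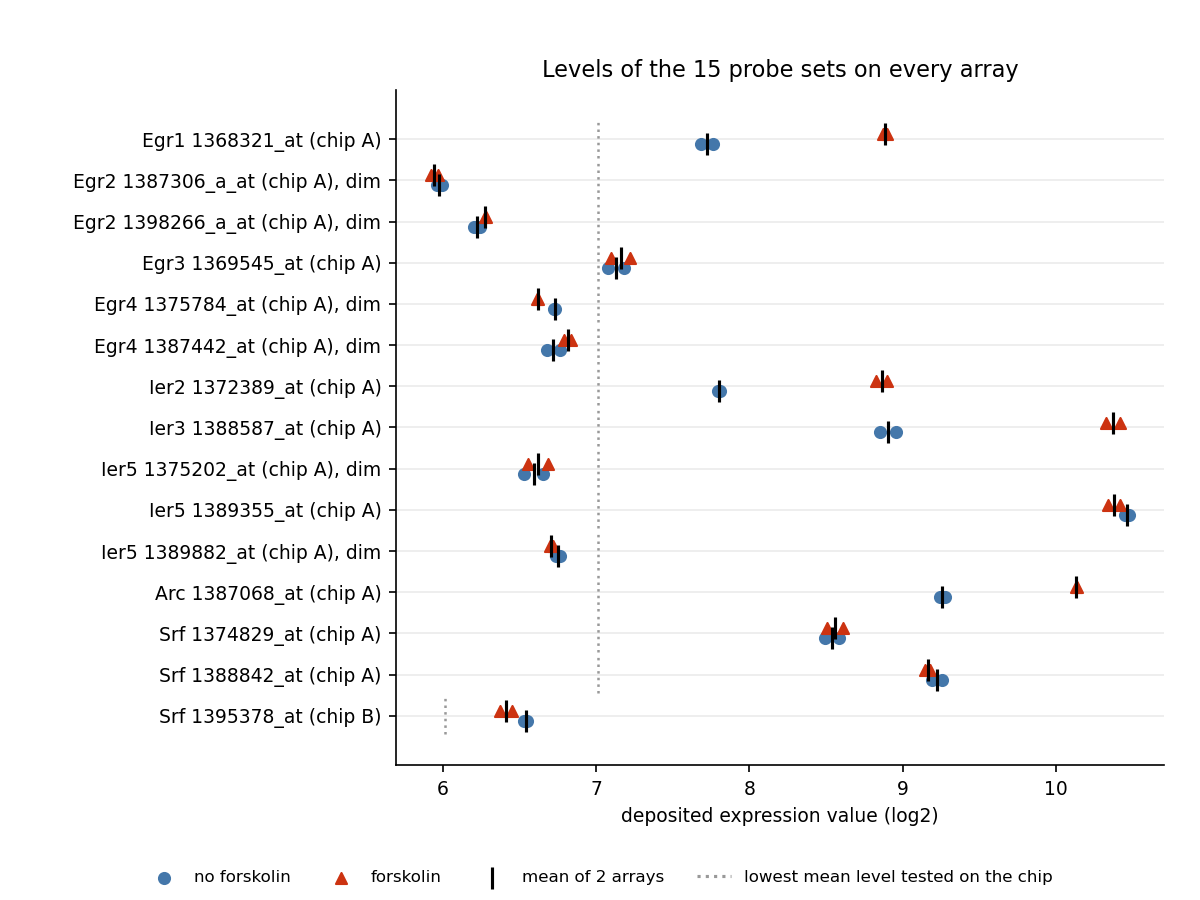
Deposited log2 expression values of the 15 probe sets (rows) on every array, with blue circles for no forskolin, red triangles for forskolin and black ticks for the mean of 2 arrays. The dotted line is the lowest mean level tested on the chip (7.02 on chip A, 6.02 on chip B). Egr1, Ier2, Ier3 and Arc are the rows whose groups stand clearly apart, and the Egr2 and Egr4 rows lie left of the line.

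Ier3, a stress-inducible regulator of cell survival also known as Iex1, showed the largest change of the 9 genes. Its probe set 1388587_at stood at 10.41 and 10.33 with forskolin and at 8.85 and 8.95 without it. The log2 change was 1.47 ± 0.05 (SE), with a 95% interval of 1.35 to 1.58 and a limma adjusted p of 5.86e-07. It ranked 17 among the tested probe sets of chip A.

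Ier2, a nuclear protein of the immediate early response, was read by 1372389_at. Its arrays stood at 8.90 and 8.83 with forskolin and at 7.80 and 7.81 without it. The log2 change was 1.06 ± 0.04 (SE), from 0.95 to 1.16 (95% interval), with a limma adjusted p of 2.51e-06. Its level without forskolin (7.80) was above the filter as well. The Ier2 interval and the Egr1 interval overlapped, and that of Ier3 lay above both.

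Ier5, a relative of Ier2 that takes part in the heat shock and DNA damage responses, did not rise on any of 3 probe sets. The brightest, 1389355_at, lay at the 90th percentile of the chip and is the reading with the most signal. It stood at 10.42 and 10.34 with forskolin and at 10.45 and 10.47 without it. The forskolin arrays were thus the lower ones, without overlap, by -0.08 ± 0.04 (log2, SE, limma adjusted p = 0.326), and the 95% interval ran from -0.17 to 0.01. The probe sets 1375202_at and 1389882_at were dim and measured 0.03 ± 0.07 and -0.04 ± 0.05 (log2, SE). On 1375202_at the arrays read 6.69 and 6.56 with forskolin and 6.65 and 6.53 without it, again with replicate 1 the higher in both groups. On 1389882_at they read 6.72 and 6.70 against 6.74 and 6.77.

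Arc, whose protein forms capsid-like shells and helps remove glutamate receptors from synapses, rose as well. Its probe set 1387068_at stood at 10.13 and 10.13 with forskolin and at 9.27 and 9.24 without it. The log2 change was 0.87 ± 0.04 (SE), with a 95% interval of 0.79 to 0.96 and a limma adjusted p of 2.68e-06. Its level without forskolin, at 9.26 ± 0.02 (SD, n = 2), shows that the transcript was read well above the filter in cells that had not been given the drug. Arc ranked 52 among the tested probe sets, and its interval lay below those of Egr1 and Ier3 and just overlapped that of Ier2.

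Srf was measured by 3 tested probe sets, none of them called. On 1374829_at the arrays stood at 8.51 and 8.61 with forskolin and at 8.58 and 8.49 without it, a change of 0.02 ± 0.05 (log2, SE, limma adjusted p = 0.890). On 1388842_at they stood at 9.15 and 9.18 with forskolin and at 9.19 and 9.25 without it, a change of -0.06 ± 0.04 (limma adjusted p = 0.490). The first overlapped between groups and the second was lower with forskolin without overlap. Chip B gave 6.45 and 6.37 with forskolin and 6.55 and 6.53 without it on 1395378_at, a change of -0.13 ± 0.08 (limma adjusted p = 0.977). The groups did not overlap there either, as in 32.7% of the tested probe sets of chip B. The tables of the chips were made separately, so the levels of Srf cannot be set against each other across them.

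Over the 10 chip A probe sets without a call, dim ones included, the 95% intervals of the log2 change reached from -0.22 to 0.22. The lowest bound among the 4 that rose was 0.79. A change of the size seen in Arc was therefore outside every interval of the genes that were not called on chip A, as far as a dim probe set can show one. On chip B the interval of Srf ran from -0.32 to 0.07. Of the 11 probe sets without a call, 1 had an unadjusted p under 0.05 by limma, namely 1375784_at of Egr4.

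**Figure D3:**
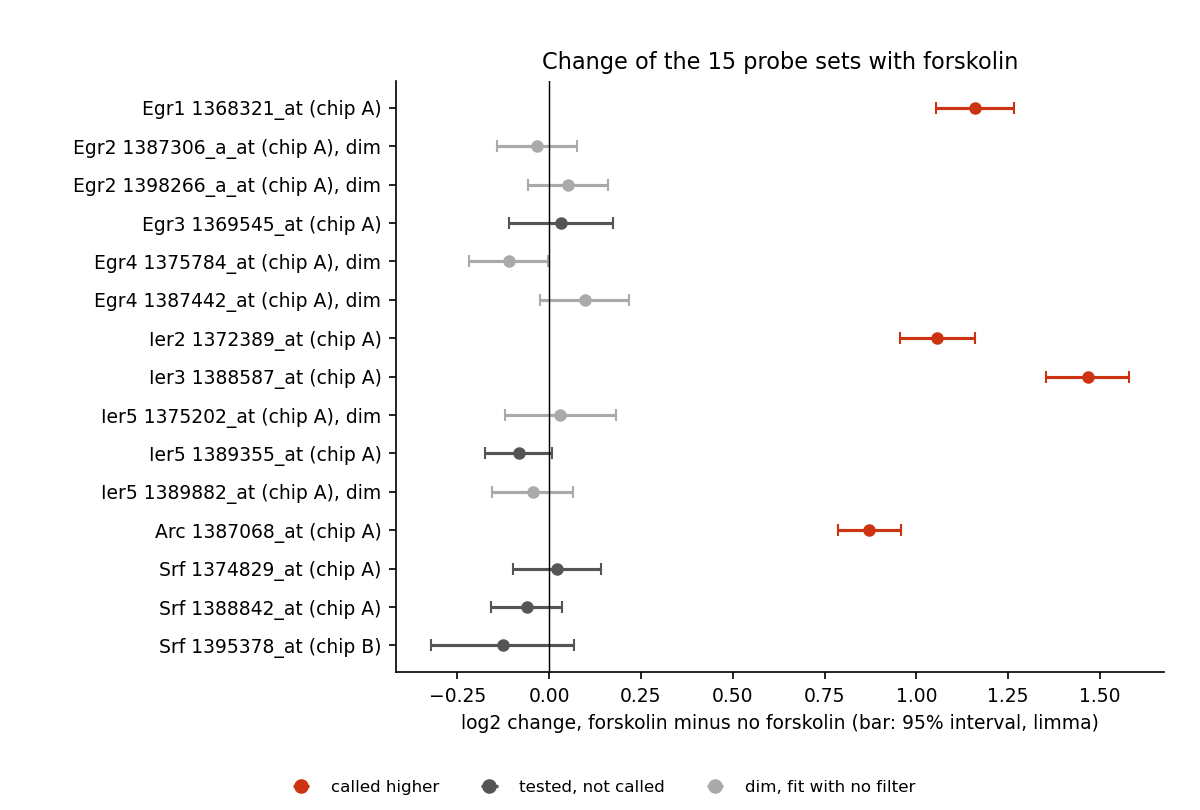
Log2 change (forskolin minus no forskolin) of the 15 probe sets with 95% intervals by limma, n = 2 arrays per group. Red probe sets were called higher, dark grey ones were tested and not called, and light grey ones were dim and come from the fit with no filter. Ier3, Egr1, Ier2 and Arc stand at 1.47, 1.16, 1.06 and 0.87, and all others lie between -0.13 and 0.10.

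Leaving out any 1 of the 4 arrays of chip A moved none of the 4 calls. The reduced group then holds 1 array, which is assumed to vary like the other group, so that the spread comes from that other group as pooled over probe sets by limma. Ier3 then ranged from 2.67-fold to 2.86-fold, Egr1 from 2.17-fold to 2.30-fold, Ier2 from 2.03-fold to 2.13-fold and Arc from 1.81-fold to 1.85-fold. The largest limma adjusted p in any of these fits was 2.37e-05. None of the 11 other probe sets was called in any of them.

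**Figure D4:**
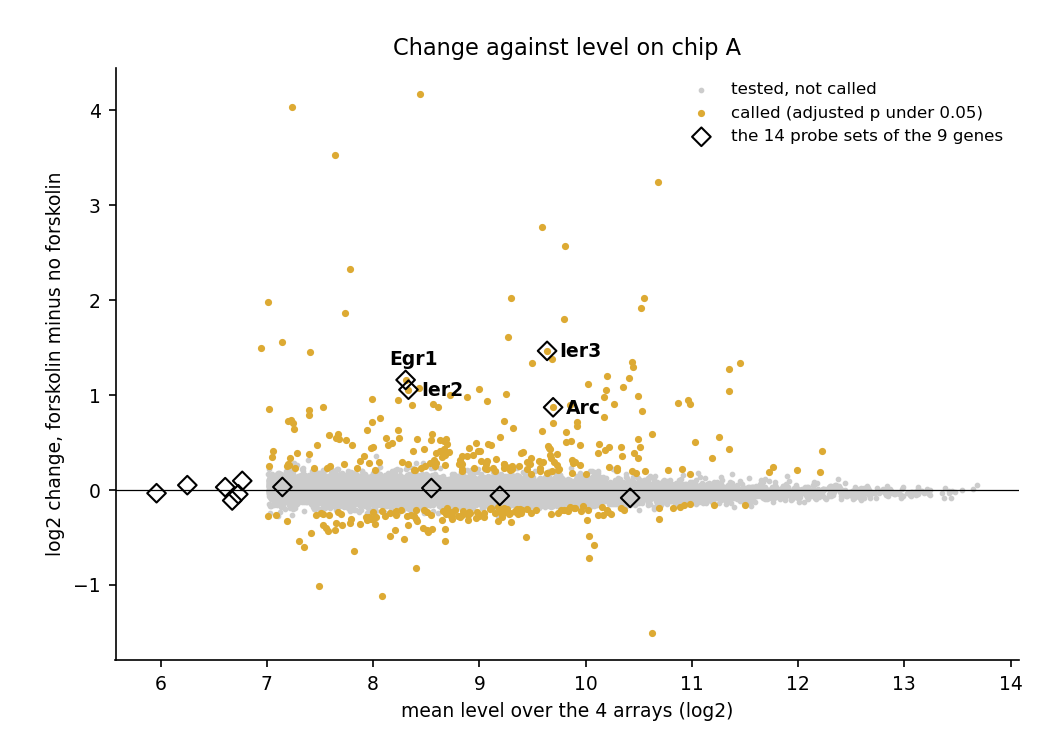
Log2 change (forskolin minus no forskolin) against the mean log2 level over the 4 arrays for the 11106 tested probe sets of chip A, with called ones in yellow and the 14 probe sets of the 9 genes as open diamonds. Ier3, Egr1, Ier2 and Arc stand above the grey band, and the other diamonds lie in it or, where dim, to its left.

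The genes whose 4 array values, each minus the mean without forskolin, lay nearest to those of Egr1 were Tob1, Mat2a and Ddit4. They came from 309 called probe sets with 1 symbol, at Euclidean distances of 0.09, 0.09 and 0.11 (log2). Tob1, an antiproliferative protein, rose 2.17-fold, Mat2a, which makes S-adenosylmethionine, 2.26-fold, and Ddit4, an inhibitor of mTOR complex signalling, 2.30-fold. Nearest to Ier3 were Gata2 (0.17), Coq10b (0.19) and Rgs2 (0.21). With 4 arrays in 2 groups this likeness is mostly a likeness in the size of the change.

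Of the corepressors of EGR proteins and the partners of Srf, 11 of 15 listed genes were tested and 1 rose. It was Nab2, which binds EGR proteins and holds them back, with a rise of 1.22-fold (limma adjusted p = 0.0139). The other Nab2 probe set measured -0.14 (log2) and was not called. The call was lost without forskolin replicate 1 (limma adjusted p = 0.0609) and with the replicate number as a block (0.0511). Among genes linked to Egr1, 25 of 35 were tested, of which 5 rose and 1 fell, with a median of 0.04 (log2). The 4 with the smallest p were Dusp1, Rcan1, Gadd45b and Gadd45a, the last being the one that fell. In this list 20% rose, against 1.42% of all 11000 other genes with a tested probe set. Of those 11000 genes 8000 were read on chip A and the others on chip B, where few probe sets were called. All 25 listed genes were read on chip A, where 2.03% of tested probe sets rose and 1.26% fell. This gene list and those below were chosen with earlier results of these data known. Their shares are therefore not independent contrasts.

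Of 53 other immediate early genes 45 were tested, and 31 rose, 2 fell and 12 were not called, with a median change of 0.70 (log2). The median over all genes was -0.02. The share that rose was 68.9%, against 1.42% of all 11000 other genes with a tested probe set. On chip A, where 42 of the 45 were read, 2.03% of tested probe sets rose. Of the 31, Fos (5.22), Nr4a3 (5.88), Nr4a2 (6.62), Rgs2 (6.68) and Bhlhe40 (6.89) had a mean log2 level without forskolin below the limit of 7.02, so these 5 entered the test only through their forskolin arrays, and the other 26 did not. The 4 with the smallest p were Dusp1, Sik1, Fos and Id3. The other tested probe set of Fos measured 0.06 (log2) and was not called. Jun, singled out with its values known, measured -0.13 (log2) without a call on the brightest of its 3 probe sets and was called lower on the other 2, down to -0.36. Read through the probe set with the smallest p, the list has 31 rises and 3 falls. Egr3, close to the limit of brightness, and Ier5 were thus tested without a call beside many genes of this list that were called. Egr2 and Egr4 were too dim to be tested. The list was chosen with earlier results of these data known, so its share is not an independent contrast for them. Of 30 tested cytoskeletal targets of Srf, the class reached through MRTF and actin, none rose and 2 fell by limma, with 2 higher and 4 lower at an unadjusted p under 0.05. The 2 that fell were Filip1l, a filamin-binding protein relative that fell by 0.48 (log2, limma adjusted p = 3.71e-04), and Ccn2, the connective tissue growth factor, that fell by 0.27 (0.0187). The Ccn2 call was lost with the block (0.0874) and without forskolin replicate 1 (0.0555), forskolin replicate 2 (0.0799) or no forskolin replicate 2 (0.0589). The median of the cytoskeletal list was -0.02 (log2), as for all genes. Since only 1.42% of all 11000 other genes with a tested probe set rose, no rise among 30 does not set this list apart. The share of the list that fell was 6.67%, against 0.945% of those other genes and 1.26% of tested chip A probe sets. It rests on Filip1l and on the less stable Ccn2 call, and the difference in shares was not tested.

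Of 22 tested neuronal activity genes beside Arc, 5 rose (22.7%) and none fell by limma, with 1 lower at an unadjusted p under 0.05. Read through the probe set with the smallest p, 1 fell. It was Rgs4, named after its values were seen, at -0.16 (log2) on 1 of its 2 tested probe sets and -0.09 on the brighter one. The 4 with the smallest p were Pim3 (2.08-fold), Plk2 (2.12-fold), which phosphorylates synaptic proteins, Syt4 (1.71-fold) and Dclk1 (1.44-fold). The other tested probe set of Dclk1 measured 0.08 (log2) and was not called. Of 12 tested relatives of the Ier genes and other early growth factor responses, 3 rose (25%), namely Tob1 (2.17-fold), Vegfa (1.35-fold) and Btg1 (1.16-fold), and none fell by limma, with 0 lower at an unadjusted p under 0.05. Over the 11000 other genes with a tested probe set, 1.42% rose. On chip A, which read 20 of these 22 genes and 11 of the 12, 2.03% of tested probe sets rose. Among the called genes, Dusp1, Gadd45b, Vegfa and Nab2 each count in 2 lists.

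**Figure D5:**
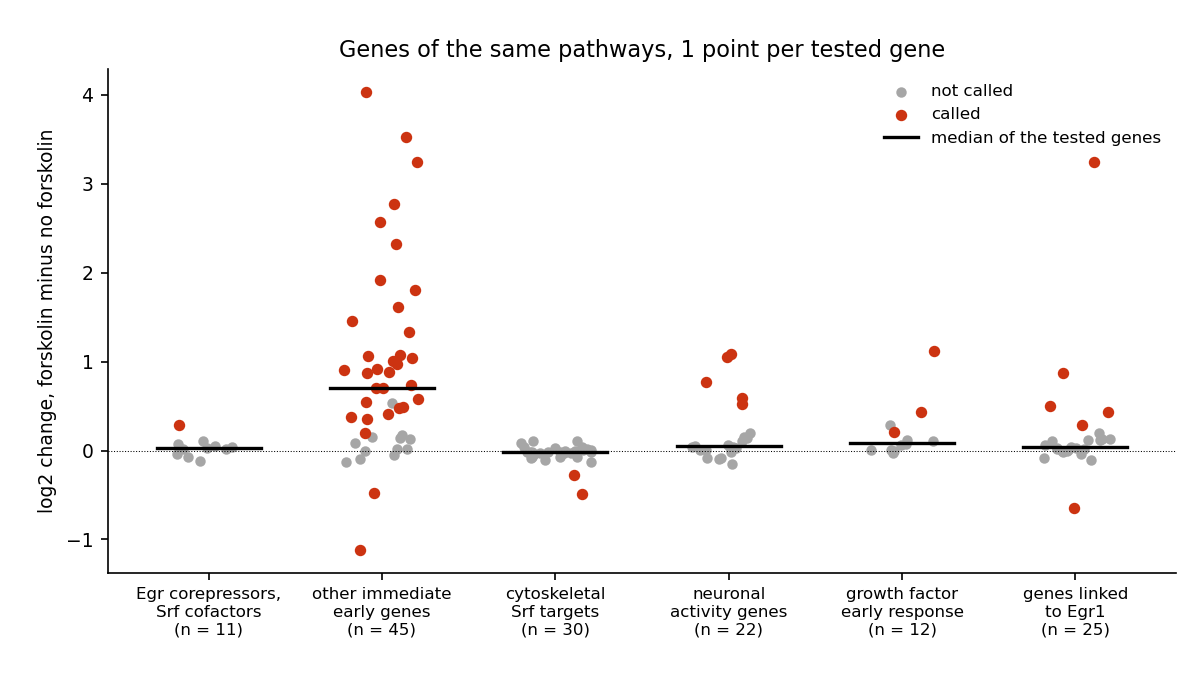
Log2 change (forskolin minus no forskolin) of the tested genes in 6 pathway lists, 1 point per gene through its brightest probe set, red where called and grey where not, with a bar at the median. Points reach 4.03 among the other immediate early genes, for Fos, which lay below the brightness limit without forskolin and whose other probe set measured 0.06, and the cytoskeletal targets of Srf hold no call above 0.

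Chip A had array medians of 8.15 to 8.17 (log2), and chip B of 6.77 to 6.79. Across the probe sets of chip A, which are not independent replicates, arrays within a group correlated at r = 0.999 and arrays from different groups at 0.997. On chip B both ranges were 0.994 to 0.996. Of 16 chromaffin markers 13 were on chip A, with a median level at the 81st percentile. Th, which makes the precursor of the catecholamines, lay at the 98th percentile, but Dbh, Slc18a1 and Slc6a2 were too dim to be tested. Of the 10 tested chromaffin markers, Gata2 (2.55-fold) and Phox2a (1.33-fold), both transcription factors, were called higher. That is 20%, against 1.42% of all 11000 other genes with a tested probe set. All 10 were read on chip A, where 2.03% of tested probe sets rose. Hand2, named after its values were seen, measured 0.16 (log2) without a call on its brightest probe set. Its other tested probe set was called, at 0.28. The summed linear value of the chromaffin list on chip A was 22777 to 23322 without forskolin and 26441 to 26595 with it. That sum includes the called Gata2 and Phox2a, the latter at a mean log2 level of 12.02 without forskolin and 12.43 with it. The brightest marker, Scg2, measured -0.02 (log2), Chgb 0.15 and Th 0.11, none of them called. The part of the chromaffin markers in the changes was not tested. The medians of glial, adrenocortical, and blood and endothelial markers were at the 32nd, 23rd and 21st percentile. That of 9 fibroblast markers was at the 45th, with Col3a1 and Thy1 among the bright ones, and their summed linear value was 10231 to 10270.5 without forskolin and 10342 to 10565 with it. No marker of these other cell types was called by limma, with 1 fibroblast gene higher at an unadjusted p under 0.05, and their part in the changes was not tested. In bulk RNA, fewer cells of a type and less RNA per cell cannot be told apart.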

How the data were processed

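Each chip has a table of 4 arrays. The authors deposited values on a log scale, taken here as log2 because, as powers of 2, 0 of them pass a 16-bit scanner's range (as natural logarithms, 3063 of chip A and 115 of chip B would). The sources used here do not say how background, probe summary and scaling were handled for the deposited log2 values. Array medians differed by under 0.1, so nothing was rescaled. The dimmest 30% of probe sets, by mean linear value, were not tested; members among them come from a fit with no filter. Symbols were those of GEO's platform annotation, updated by gene number to RefSeq (GRCr8), which matched 12748 of the 12783 probe sets with 1 symbol on chip A; for chip B it matched 7524 of 7564. Several symbols were carried by 312 and 100 probe sets, and none by 2771 and 7612.

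Each chip was fitted alone with limma 3.58.1 in R 4.3.3 (lmFit, eBayes with an intensity trend, two-sided), with Benjamini-Hochberg adjustment. In 10 simulations with 200 changed probe sets, it recovered 81.5% of rises of 0.5 and 98.5% of rises of 1 (log2) on chip A (11106 probe sets), and 31.5% and 76% on chip B (10693). The number of arrays limits the precision. A listed gene was represented by its brightest tested probe set, from chip A where possible. The members, the lists and their tests were chosen with earlier results of these data known. Named genes are the members, up to 4 called genes per list by smallest p, and the 3 genes nearest to Egr1 and to Ier3. Alternatives were other scalings, filters, no trend, a replicate block and each array left out.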

Additional observations from a re-analysis of the deposited data

How the results depend on the processing

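The 4 calls among the 15 probe sets were the same under all 10 alternatives (quantile normalization, median centring, eBayes without a trend, no filter, a stricter filter at the 50th percentile, the replicate number as a block, and each array left out). No other probe set of the 9 genes was called in any of them where it could be tested, and under the stricter filter Egr3 was not among the tested. Of 136 values 130 kept direction and call. The sign turned in 6, none of them called. With 1 array left out, Egr3 ranged from -0.030 to 0.094 (log2), Ier5 on 1375202_at from -0.035 to 0.094, and Srf on 1374829_at from -0.029 to 0.071, each being below 0 in 2 of the 4 fits. Taking the probe set with the smallest p turned 0 falls among neuronal activity genes into 1, and 2 among immediate early genes into 3. It also turned 5 rises among genes linked to Egr1 into 6. The added gene was Cdkn1a, named after its values were seen, at 0.30 (log2) on 1 of its 2 tested probe sets and 0.13 on the brighter one. The CArG box with 1 mismatch allowed was in 4 of 6 promoters instead of 3, and in 9.42% of all 33469 promoters instead of 1.64%.

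The labels do not say what the replicate number stands for, and 2 pairs cannot settle it: the deviations of same-numbered arrays from the group means correlated at 0.003 on chip A and 0.20 on chip B. With the replicate block, limma gave adjusted p = 6.15e-04 for Egr1, 6.67e-04 for Ier2, 4.28e-04 for Ier3 and 5.02e-04 for Arc. The block left 159 higher and 46 lower calls on chip A, against 226 and 140, and 2 lower calls on chip B against 1. Median centring gave 277 lower on chip A. Quantile normalization gave 27 higher and 3 lower on chip B, against 16 and 1. Leaving out 1 array gave 165 to 256 higher and 79 to 198 lower on chip A, and 8 to 47 higher and 0 to 50 lower on chip B. The precision is that of 2 arrays per group, and dim probe sets may understate a change.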

Other observations

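The promoter letters shown for the 6 genes were also read across chip A, as a description chosen after the values were seen. Among 6309 other genes with a tested probe set on chip A and a promoter in the table, 1.87% rose by limma. Of the 204 with a full CRE, as in Ier2, 13 rose, or 6.37%, and 1 fell. They were Dusp1 (9.48-fold), Plk2 (2.12-fold), Ppp1r15a (1.66-fold), Cbx8 (1.64-fold), Slc25a25, Rcan1, Hic2, Tgif2, B4galt3, Skil, Zdbf2, Slc25a33 and Srrd, and the gene that fell was Mterf1. Of the 78 with a CArG box, as in Egr1, Egr2 and Srf, 2 rose, or 2.56%, which is near the share of all genes, namely Dusp5 (2.00-fold) and Zfp36 (1.46-fold). Klf6 was the 1 that fell, by 1.12 (log2). Of the 582 with a full CRE or at least 2 CRE cores, as in Egr1, Ier2 and Egr4, 27 rose, or 4.64%. The share was 2.84% of 2110 genes with a CRE core and 2.51% of 676 with an EGR site. Of 3712 genes with none of the 4 motifs 1.35% rose. The groups of genes differ in other ways, such as base composition, and no test was made.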
